A study of Homo sapiens with 6 samples.

Results

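The Krüppel-like factor (KLF) genes KLF2, KLF3, KLF4, KLF5, KLF6, KLF7, KLF9, KLF10, KLF11 and KLF13 were followed in MDA-MB-231 cells exposed to the histone deacetylase (HDAC) inhibitor PCI-24781. Their NCBI Gene IDs were looked up among the 16623 genes of the expression files, and all 10 were found. MDA-MB-231 is a line derived from a triple-negative breast cancer that grows with a mesenchymal shape. Adherent cells were given DMSO, the solvent of the compound, or PCI-24781 at 100 nM or 200 nM, and RNA was taken after 24 h or 48 h. Each of the 6 conditions was sequenced as 1 library, so no difference has a replicate check and no p-value is given. Expression is in FPKM, which divides the fragments of a gene by its transcript length and by the mapped fragments of the library. A change is the difference in log2(FPKM + 1) between 2 libraries, a scale that understates the change of weakly expressed genes. A gene was tested where it reached an FPKM of 1 in either of the libraries compared, and was called higher or lower when it differed 2-fold or more.

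KLF proteins are transcription factors with zinc fingers at the C-terminus that bind GC-rich and CACCC sequences, and they are relatives of the SP factors. Some members mainly activate transcription. Others recruit the corepressors SIN3A or CtBP, which bring HDACs to target genes, so the family includes proteins that act through the enzymes that PCI-24781 inhibits. In epithelial and endothelial cells the family is known for control of proliferation, quiescence and differentiation.

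The stretch upstream of the gene start was read from the RefSeq table of assembly GRCh38.p14, which matched 8 of the 10 members (not KLF3 or KLF10), with 13 entries. Of the 250 bases before each start, the GC box GGGCGG, a letter sequence that SP and KLF proteins bind, was present in 8 of the 13 entries and in 42.6% of all 35116 entries. CACCC was present in 6 of 13 and in 54.7% of all entries, and CCAAT, the site of the factor NF-Y, in 6 of 13 and in 32.0%. All motifs were searched on both strands. The median GC content was 70.8% in the 13 entries and 58% in all entries. The upstream stretches of 5 members whose values are followed below are shown 5′ to 3′ on the strand of the gene, with the motif matches in capitals. KLF2 carries GC boxes, read as GGGCGG or CCGCCC, and 1 match to the consensus site of MEF2 factors, the AT-rich run in capitals, which was present in 1 of the 13 entries and in 2.80% of all entries. KLF4 carries GC boxes, KLF6 GC boxes and CCAAT read as ATTGG, and KLF9 ATTGG alone. KLF13 carries CCAAT on both strands and GC boxes, of which 1 overlaps a CACCC. These matches describe letters in the window and not bound sites.
KLF2, chr19:16324576-16324825, plus strand: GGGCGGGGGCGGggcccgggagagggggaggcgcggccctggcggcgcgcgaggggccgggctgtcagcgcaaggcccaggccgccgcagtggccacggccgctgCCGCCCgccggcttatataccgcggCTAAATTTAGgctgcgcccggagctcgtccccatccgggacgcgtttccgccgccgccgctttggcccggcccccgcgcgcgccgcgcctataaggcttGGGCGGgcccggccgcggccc
KLF4, chr9:107489770-107490019, minus strand: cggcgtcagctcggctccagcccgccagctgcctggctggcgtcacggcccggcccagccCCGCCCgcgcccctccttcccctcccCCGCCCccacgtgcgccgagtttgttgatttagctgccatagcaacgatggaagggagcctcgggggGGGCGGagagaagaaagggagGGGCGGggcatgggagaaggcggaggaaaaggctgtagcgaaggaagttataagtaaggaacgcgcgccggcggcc
KLF6, chr10:3785210-3785459, minus strand: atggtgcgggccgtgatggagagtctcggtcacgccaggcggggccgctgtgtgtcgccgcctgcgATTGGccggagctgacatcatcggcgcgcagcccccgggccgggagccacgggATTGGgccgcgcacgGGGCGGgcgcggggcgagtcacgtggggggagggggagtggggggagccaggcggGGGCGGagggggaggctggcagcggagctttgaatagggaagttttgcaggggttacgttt
KLF9, chr9:70414658-70414907, minus strand: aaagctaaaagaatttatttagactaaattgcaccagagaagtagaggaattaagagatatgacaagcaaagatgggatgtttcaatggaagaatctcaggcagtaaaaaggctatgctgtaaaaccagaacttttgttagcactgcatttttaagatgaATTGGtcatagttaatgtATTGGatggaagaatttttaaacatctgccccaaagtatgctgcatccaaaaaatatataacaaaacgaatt
KLF13, chr15:31326585-31326834, plus strand: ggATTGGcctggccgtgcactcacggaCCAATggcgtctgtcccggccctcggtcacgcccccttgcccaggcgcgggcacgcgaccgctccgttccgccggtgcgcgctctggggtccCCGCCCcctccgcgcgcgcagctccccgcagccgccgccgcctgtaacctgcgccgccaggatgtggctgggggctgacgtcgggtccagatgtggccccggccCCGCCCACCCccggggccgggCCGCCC

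The label of the cells was checked first. The mesenchymal genes VIM, CD44, AXL, MSN and CAV1 were high in all 6 libraries, with VIM between 1629 and 2053 FPKM. The luminal receptor genes ESR1 and PGR were at or below 0.04 FPKM, whereas GATA3 was between 0.70 and 1.03, FOXA1 between 1.28 and 1.75 and EPCAM, an epithelial surface gene, between 2.26 and 4.70. The depth, inferred from the steps between low values, was about 15700000 to 18000000 fragments. The DMSO libraries differed from each other: 2.62% of 11490 genes changed at least 2-fold between 24 h and 48 h. Against DMSO of the same time, the corresponding share was 1.48% with 100 nM and 5.94% with 200 nM for 24 h, and 0.469% and 0.266% for 48 h. CDKN1A, which encodes the cell cycle inhibitor p21 and is widely induced by HDAC inhibitors, was at 13.18 FPKM in DMSO, 30.61 with 100 nM and 48.84 with 200 nM after 24 h, and at 44.25, 25.81 and 52.88 after 48 h. Thus DMSO 48 h stood close to the 200 nM libraries in CDKN1A, and the 100 nM 48 h library stood below its own control. In a set of 5 genes known to respond to HDAC inhibitors, 2 were called higher at each dose at 24 h (CDKN1A and CLU), 0 at 48 h and 3 in DMSO 48 h against DMSO 24 h. Time and any other difference between these DMSO libraries cannot be told apart. Whether the labels of DMSO 48 h and 100 nM 48 h are exchanged was not tested. An exchange would turn the sign of every change given for 100 nM 48 h against DMSO 48 h. It would also alter the control of 200 nM 48 h, the differences between the DMSO libraries and the dose steps at 48 h. The counts of members above or below both DMSO libraries would be altered too. Libraries are called by their labels throughout. The members are therefore given against the DMSO library of the same time and, where it matters, against each DMSO library.

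All 10 members were expressed, at levels that spanned more than an order of magnitude between genes. KLF6, a widely expressed growth regulator, was the highest member in every library, with a median of 46.4 FPKM over the 6 libraries and a lowest value of 37.90, above every value of KLF2 (16.05 to 37.57). The order by median FPKM, a scale corrected for length, went on with KLF2 at 22.8, KLF10 at 18.4, KLF4 at 16.6, KLF5 at 14.9, KLF13 at 12.0, KLF11 at 7.75 and KLF3 at 6.99. From KLF2 to KLF3 the ranges of neighbours over the 6 libraries overlapped. KLF7 and KLF9 formed a lower tier, with medians of 2.13 and 1.73 FPKM and no value as high as the lowest value of KLF3. The summed level of the 10 members was between 135 and 168 FPKM, of which KLF6 made up 28.0% to 34.2%. The highest library exceeded the lowest 8.05-fold for KLF9, 2.75-fold for KLF7 and 2.34-fold for KLF2, compared with 1.31-fold to 1.85-fold for the other 7 members. The widest ratios of KLF9 and KLF7 rest on few fragments, about 34 for KLF9 and 30 for KLF7 in DMSO 24 h. The fragments of a gene were inferred with its shortest transcript. The KLF7 transcripts run from 1788 to 8362 bases, so its fragments may be more and its intervals below narrower.

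**Figure D1:**
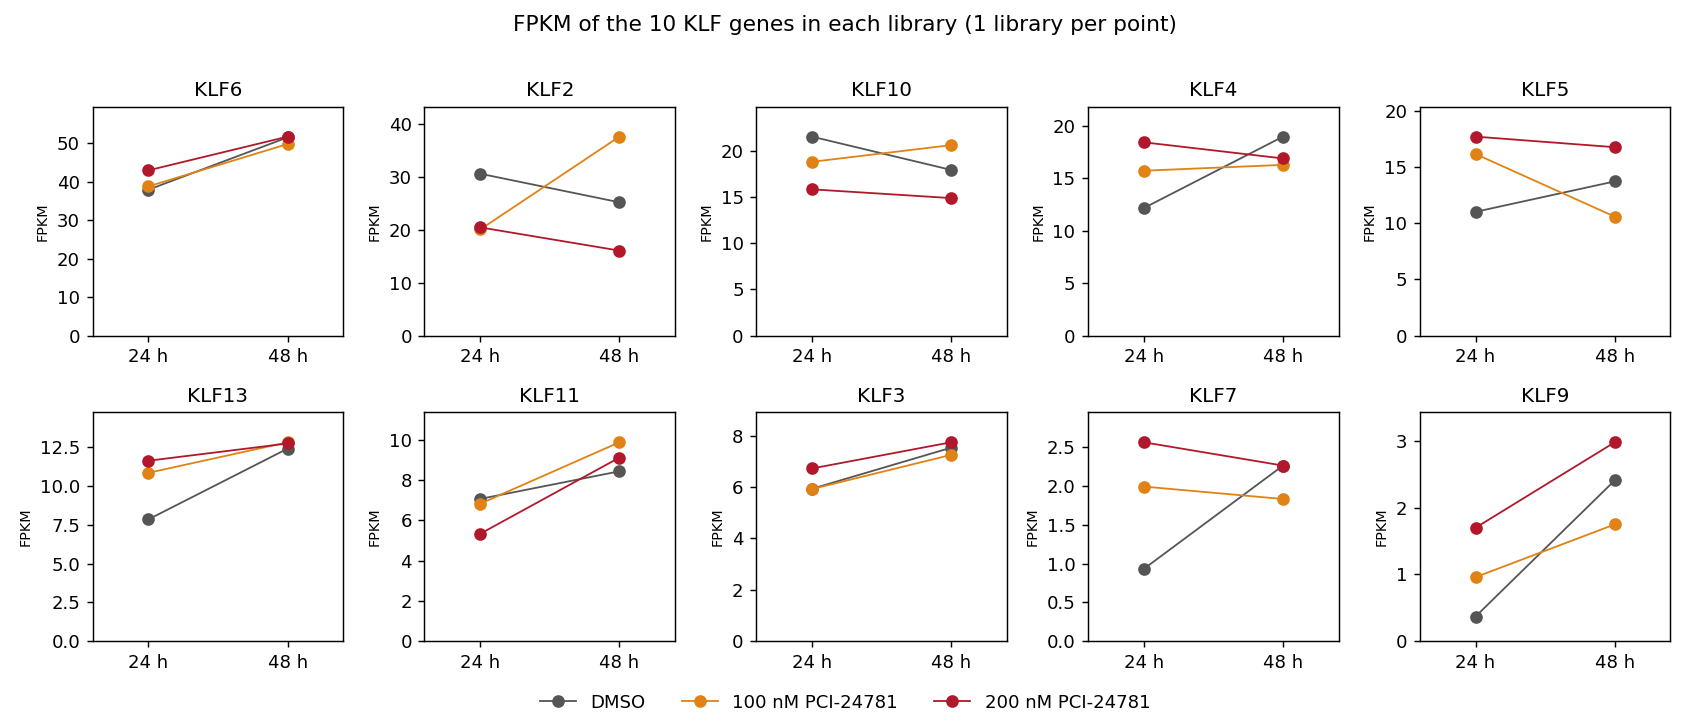
Expression of the 10 KLF members in FPKM at 24 h and 48 h, with 1 panel per gene, its own axis from 0, and 1 point per library (DMSO grey, 100 nM orange, 200 nM red) joined by treatment. KLF6, KLF3 and KLF13 lie higher at 48 h under each treatment, and KLF2 spreads from 16.05 to 37.57 at 48 h.

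Against the time-matched DMSO library, the members stayed within the 2-fold limit. At 100 nM 24 h, 0 of 10 members were called higher and 0 lower, where 1.35% and 0.131% of 11475 tested genes were. At 200 nM 24 h the counts were again 0 and 0, against 4.47% and 1.48% of 11660 genes. At 48 h they were 0 and 0 at 100 nM, against 0.0608% and 0.408% of 11514 genes, and 0 and 0 at 200 nM, against 0.206% and 0.0600% of 11665 genes. In the comparison of 100 nM 24 h KLF9 was below an FPKM of 1 in both libraries, so that 9 members passed the filter there and 10 in the other comparisons. With a pseudocount of 0.1 in place of 1, KLF7 was called higher at 100 nM 24 h, and both KLF7 and KLF9 at 200 nM 24 h. The median change over the 10 members was 0.19 with 100 nM and 0.34 with 200 nM for 24 h, and -0.05 and 0.02 for 48 h, compared with -0.01 to 0.01 over all tested genes. Over the 9 members tested at 100 nM 24 h, without KLF9, the median was 0.032. The median size of the change without its sign was 0.38, 0.54, 0.20 and 0.13, compared with 0.17, 0.28, 0.12 and 0.11 over all tested genes.

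At a limit of 1.5-fold, KLF7 was higher at 100 nM 24 h (1 of 10 members, 5.54% of tested genes) and KLF2 was lower (1 of 10, 1.25%). At 200 nM 24 h, KLF5, KLF7 and KLF9 were higher (3 of 10, 12.5%) and 0 of 10 were lower (7.58%). At 100 nM 48 h, 0 of 10 were higher (0.504%) and 0 of 10 lower (1.75%). At 200 nM 48 h, 0 of 10 were higher (1.53%) and KLF2 was lower (1 of 10, 0.463%). KLF2 was the only member past this limit at 48 h. Counting changes of any size, 6, 7, 4 and 6 of the 10 members were higher in the 4 comparisons, where 51.6%, 51.2%, 47.2% and 51.0% of tested genes were.

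**Figure D2:**
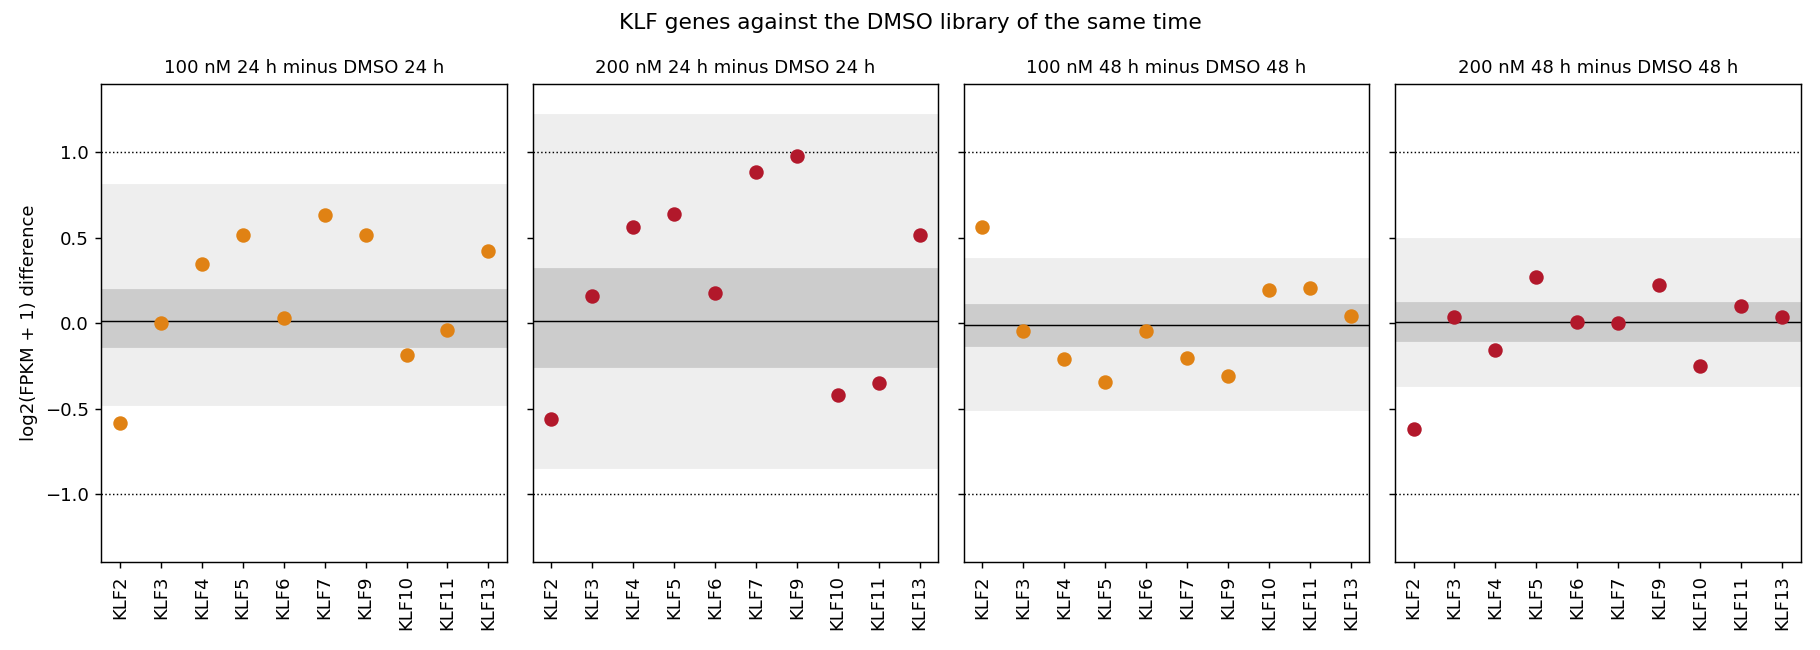
Change in log2(FPKM + 1) of each KLF member against the DMSO library of the same time in the 4 comparisons. Dots are members, the black line is the median of all tested genes, the dark and light bands hold the central 50% and 95% of tested genes and dotted lines mark 2-fold. KLF2 lies below the light band at 100 nM 24 h and 200 nM 48 h, and above it at 100 nM 48 h.

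Among the members that mainly activate transcription, KLF2, a factor of quiescence in endothelial cells and lymphocytes, had the most extreme percentile of the 10 members in 3 of the 4 comparisons. KLF2 (NCBI Gene ID 10365, chromosome 19, 16435651 to 16438345, plus strand, hg19 as are all gene positions below) was at 30.57 FPKM in DMSO 24 h, 20.04 with 100 nM and 20.44 with 200 nM. The 48 h levels were 25.17 in DMSO, 37.57 with 100 nM and 16.05 with 200 nM. Both doses were thus below DMSO at 24 h, whereas at 48 h the 100 nM library was the highest of the 6 and the 200 nM library the lowest. The changes were -0.59, -0.56, 0.56 and -0.62, at percentiles 1.24, 8.35, 99.4 and 0.369 of the tested genes. The ratio of FPKM to DMSO was 0.656 (95% interval 0.596 to 0.722) with 100 nM and 0.669 (0.608 to 0.736) with 200 nM for 24 h, and 1.49 (1.37 to 1.63) and 0.638 (0.571 to 0.712) for 48 h. These intervals, and those below, are exact binomial intervals on inferred fragments and cover counting error only. The spread between cultures is not in them. With DMSO 24 h as the reference of all libraries the KLF2 changes were -0.59, -0.56, 0.29 and -0.89, and with DMSO 48 h they were -0.31, -0.29, 0.56 and -0.62, so the signs did not depend on the control.

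The largest dose step of the family was also in KLF2. At 48 h KLF2 was 0.427-fold as high at 200 nM as at 100 nM (95% interval 0.385 to 0.474), a change of -1.18 at percentile 0.162 of 11694 genes, and it was the only member called lower (1 of 10, 0.291% of tested genes), while 0 of 10 were called higher (1.71%). At 24 h the same step was 0.03, and 0 of 10 members were called higher (0.343% of 11651 genes) or lower (0.180%). Without the 100 nM 48 h library, KLF2 was below both DMSO libraries in each remaining PCI-24781 library (1 of 10 members, 12.5% of 11893 genes). The KLF2 transcript is rich in GC (65.2%, against a median of 49.0% over 11664 genes). Relative to the median of genes of similar GC content, the step at 48 h was -1.03, and the 4 changes against DMSO were -0.57, -0.63, 0.49 and -0.54.

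KLF2 is known to be induced by a kinase cascade from MAP2K5 (MEK5) to MAPK7 (ERK5) and on to MEF2 factors, for which a consensus match stands in capitals upstream of the gene. MEF2D was at 15.24 FPKM in DMSO 24 h, 19.00 with 100 nM and 26.41 with 200 nM, and at 48 h at 22.66, 23.94 and 22.84. MEF2A, MAPK7 and MAP2K5 differed from DMSO by -0.32 to 0.26 in the 4 comparisons. MEF2C was between 0.21 and 1.66 FPKM, with changes of 0.34, 0.23, -0.25 and 0.60. It passed the filter only in the comparison of 200 nM 48 h, its highest library. Whether MEF2 factors act on KLF2 in these cells was not tested. Of 10 listed regulators of KLF genes and proteins, which also include the ubiquitin ligases WWP1, FBXW7, SMURF1 and SIAH1, 0 were called in any of the 4 comparisons, and their median changes were 0.06, -0.12, 0.07 and 0.04. WWP1, which targets KLF5 and KLF2 for degradation, differed from DMSO by 0.30, 0.61, -0.29 and 0.20.

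KLF4, a reprogramming factor that also promotes epithelial differentiation, was at 12.15 FPKM in DMSO 24 h, 15.71 with 100 nM and 18.42 with 200 nM, and at 18.96, 16.27 and 16.88 in the corresponding 48 h libraries. The gene (ID 9314) lies on chromosome 9 from 110247133 to 110252001 on the minus strand. Its changes were 0.35, 0.56, -0.21 and -0.16. The DMSO 24 h library was the lowest and the DMSO 48 h library the highest of the 6, so all 4 PCI-24781 libraries lay between the controls, and against DMSO 48 h the changes at 24 h were -0.26 and -0.04.

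KLF5, which drives proliferation of intestinal and basal epithelium, was at 11.01 FPKM in DMSO 24 h, 16.15 with 100 nM and 17.70 with 200 nM. The 48 h levels were 13.72 in DMSO, 10.58 with 100 nM and 16.76 with 200 nM. KLF5 (ID 688, chromosome 13, 73629114 to 73651680, plus strand) was higher than either DMSO library in 3 of the 4 PCI-24781 libraries, and the 100 nM 48 h library was the lowest of the 6. The changes were 0.51, 0.64, -0.35 and 0.27, and with DMSO 48 h as the reference of all libraries 0.22, 0.35, -0.35 and 0.27. Without the 100 nM 48 h library, KLF5 was the 1 member above both controls in each PCI-24781 library, as were 15.2% of 11893 genes. At 48 h it was 1.58-fold higher at 200 nM than at 100 nM (95% interval 1.42 to 1.77), the reverse of KLF2.

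KLF6 (ID 1316, chromosome 10, 3818188 to 3827473, minus strand) was at 37.90 FPKM in DMSO 24 h, 38.76 with 100 nM and 42.93 with 200 nM, and at 51.50, 49.77 and 51.69 in the corresponding 48 h libraries. The values split by time and not by dose. Its changes against DMSO of the same time were 0.03, 0.18, -0.05 and 0.01. KLF7, a factor of neuronal development, was at 0.93 FPKM in DMSO 24 h, 1.99 with 100 nM and 2.56 with 200 nM, and at 2.26, 1.83 and 2.26 at 48 h. The gene (ID 8609) lies on chromosome 2 from 207938861 to 208031970 on the minus strand. Its changes were 0.63, 0.88, -0.20 and 0, and at 24 h the FPKM ratio was 2.14 (95% interval 1.36 to 3.43) at 100 nM and 2.75 (1.79 to 4.35) at 200 nM. Only the DMSO 24 h library stood apart, and against DMSO 48 h the KLF7 changes at 24 h were -0.12 and 0.13.

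Among the members known as repressors, KLF3, which binds CtBP, varied least with treatment. KLF3 (ID 51274, chromosome 4, 38665790 to 38703134, plus strand) was at 5.93, 5.92 and 6.72 FPKM at 24 h in DMSO, 100 nM and 200 nM, and at 7.53, 7.25 and 7.74 at 48 h. Its changes were between -0.05 and 0.16. KLF3 shares exon sequence with the antisense gene KLF3-AS1 in the GENCODE 29 annotation, and since no strand setting is given for the libraries, reads of both genes cannot be told apart. KLF11 overlaps an antisense gene in the same way, and the other 8 members do not.

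KLF9, a SIN3A-binding factor induced by glucocorticoid and thyroid hormone, had the widest range. KLF9 (ID 687, chromosome 9, 72999513 to 73029573, minus strand) was at 0.37 FPKM in DMSO 24 h, 0.96 with 100 nM and 1.70 with 200 nM, and at 2.41, 1.75 and 2.98 in the corresponding 48 h libraries. Within 24 h the level followed the dose, and every 48 h library was above every 24 h library, although the nearest values, 1.75 and 1.70, rest on about 163 and 153 fragments and differ by less than counting error. The change was 0.52 with 100 nM and 0.98 with 200 nM for 24 h, the latter at percentile 95.3, and -0.31 and 0.22 for 48 h. On the FPKM scale, without a pseudocount, the ratio at 24 h was 2.59 (95% interval 1.74 to 4.02) at 100 nM and 4.59 (3.19 to 6.96) at 200 nM, and at 48 h it was 0.726 (0.588 to 0.891) and 1.24 (1.02 to 1.49). The direction at 24 h depended on the control, because DMSO 48 h was higher than both: against it the changes at 24 h were -0.80 and -0.34. From DMSO 24 h to DMSO 48 h, KLF9 differed 6.51-fold (95% interval 4.60 to 9.80), a change of 1.32. It was the only member called between the controls (1 of 10, with 2.49% of 11490 genes called higher), at percentile 99.0.

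KLF10 and KLF11, repressors first described as genes induced early by TGF-beta, were lower at 200 nM than at 100 nM at both times. For KLF11 at 48 h that step was within counting error (FPKM ratio 0.923, interval 0.825 to 1.03). KLF10 (ID 7071) was at 21.56 FPKM in DMSO 24 h, 18.83 with 100 nM and 15.85 with 200 nM, and at 17.95, 20.64 and 14.90 at 48 h. Both 200 nM libraries were below all the others, and the changes were -0.19, -0.42, 0.19 and -0.25. KLF11 (ID 8462, chromosome 2, 10183682 to 10194963, plus strand) was at 7.06, 6.82 and 5.33 FPKM at 24 h and at 8.43, 9.87 and 9.11 at 48 h. Its changes were -0.044, -0.35, 0.21 and 0.10, and every 48 h library was above every 24 h library. KLF13, which binds SIN3A and regulates CCL5 in T cells, was at 7.85 FPKM in DMSO 24 h, 10.85 with 100 nM and 11.63 with 200 nM, and at 12.41, 12.82 and 12.74 at 48 h. KLF13 (ID 51621, chromosome 15, 31619058 to 31727868, plus strand) had changes of 0.42, 0.51, 0.04 and 0.04. As for KLF4 and KLF7, DMSO 24 h was its lowest library, and against DMSO 48 h its changes at 24 h were -0.18 and -0.09.

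**Figure D3:**
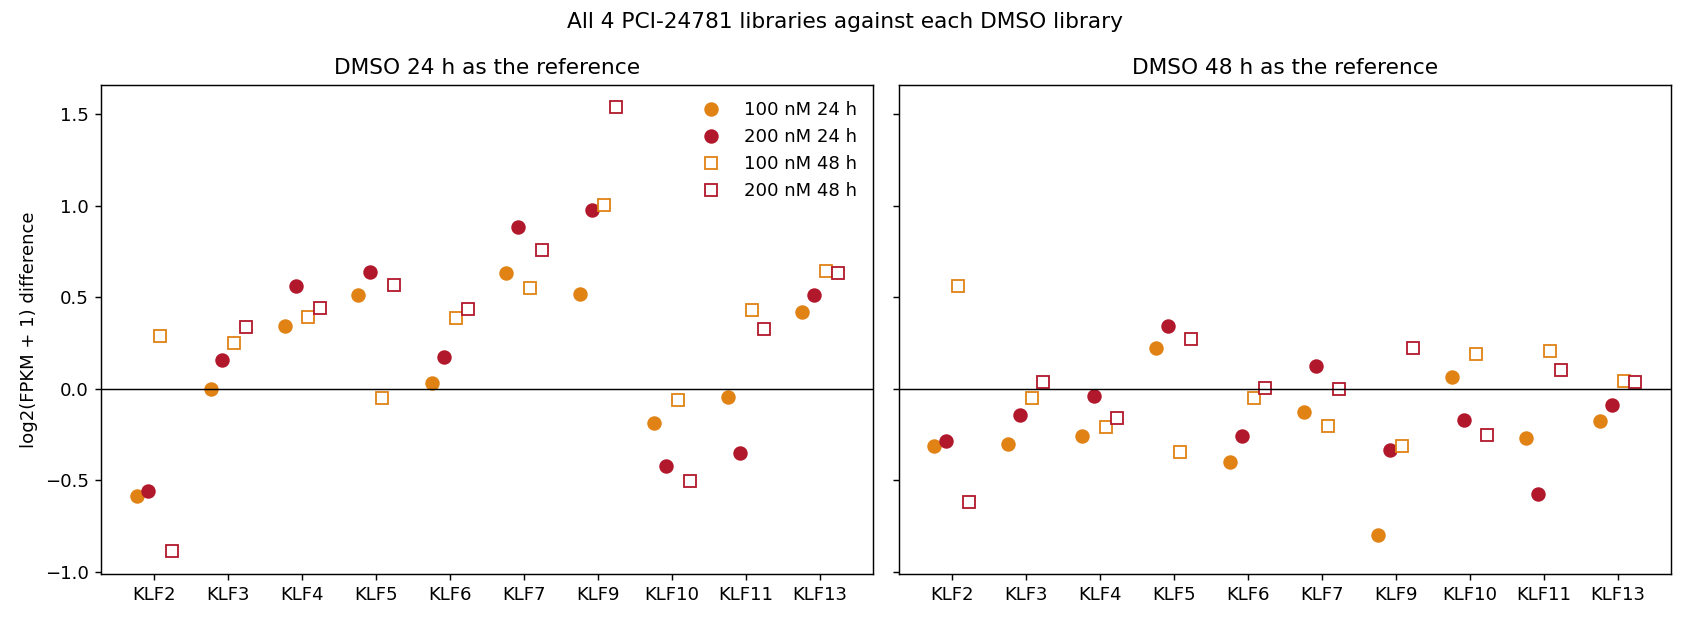
Difference in log2(FPKM + 1) between each of the 4 PCI-24781 libraries and DMSO 24 h (left) or DMSO 48 h (right) for every KLF member, with filled circles for 24 h and open squares for 48 h. At 200 nM 24 h, 7 of 10 members are higher than DMSO 24 h and 2 of 10 are higher than DMSO 48 h.

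The control chosen therefore set the direction of many members at 24 h. Against DMSO 24 h, 6 of 10 members were higher in the 100 nM 24 h library and 7 in the 200 nM 24 h library. Against DMSO 48 h, 2 and 2 were. DMSO 24 h was the lowest of the 6 libraries for KLF4, KLF6, KLF7, KLF9 and KLF13 (5 of 10 members, 27.1% of the 11893 genes that reached an FPKM of 1 in a library), and the highest for KLF10 (1 of 10, 25.8%). Between the controls, KLF4, KLF7, KLF9 and KLF13 were more than 1.5-fold higher at 48 h (4 of 10, 8.49%), and 0 of 10 were called lower at 2-fold (0.131%). The levels of 0 of 10 members were above both DMSO libraries in all 4 PCI-24781 libraries, where 3.75% of these genes were, and 0 of 10 were below both, where 3.53% were. These counts rest on the labels. With DMSO 48 h and 100 nM 48 h exchanged, KLF2 and KLF10 would lie below both controls, and KLF5 and KLF7 above both. For KLF7 the nearest values, 1.99 and 1.83 FPKM, rest on about 62 and 59 fragments. The share of all genes after an exchange was not computed.

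The levels of 5 members split by time whatever the treatment. For KLF3, KLF6, KLF9, KLF11 and KLF13, all 3 libraries of 48 h were above all 3 of 24 h (5 of 10 members, 11.3% of 11893 genes), and for 0 of 10 members they were all below (13.2%). These 5 genes were also the members that were higher at 48 h in each of the DMSO, 100 nM and 200 nM pairs (18.5% of genes), and 0 of 10 were lower in each (21.2%). The split was narrow for KLF9, as given above, and for KLF3 and KLF13. For KLF3 the nearest values were 7.25 FPKM in 100 nM 48 h and 6.72 in 200 nM 24 h, on about 668 and 599 fragments. For KLF13 they were 12.41 in DMSO 48 h and 11.63 in 200 nM 24 h, on about 1491 and 1381. No interval was computed for these pairs. The increases from 24 h to 48 h in DMSO, 100 nM and 200 nM were 1.32, 0.49 and 0.56 for KLF9, and 0.23, 0.48 and 0.68 for KLF11. KLF6 differed by 0.43, 0.35 and 0.26, KLF3 by 0.30, 0.25 and 0.18, and KLF13 by 0.60, 0.22 and 0.12. All but KLF11 thus had their largest increase in DMSO. Without the DMSO pair the same 5 members were higher at 48 h (28.6%), and KLF5 and KLF7 were lower (2 of 10, 34.1%).

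**Figure D4:**
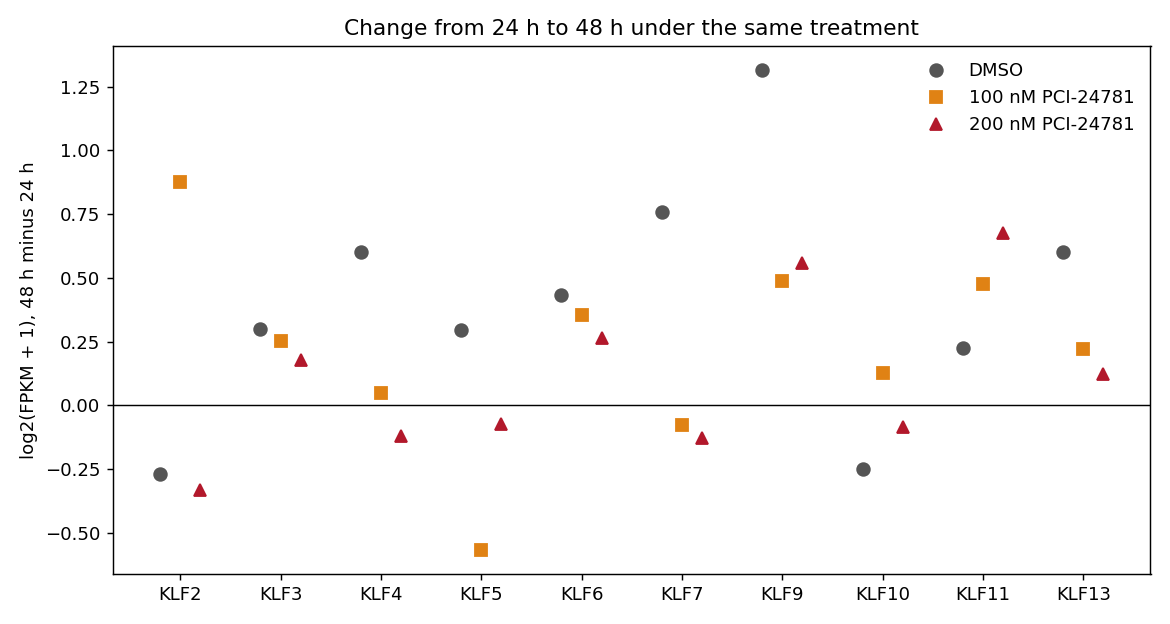
Difference in log2(FPKM + 1) between 48 h and 24 h for each KLF member in the DMSO, 100 nM and 200 nM pairs. KLF3, KLF6, KLF9, KLF11 and KLF13 lie above 0 in all 3 pairs, and KLF2 reaches 0.87 in the 100 nM pair.

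Comparing the doses at the same time does not use a DMSO library. KLF3, KLF4, KLF5, KLF6, KLF7 and KLF9 were higher at 200 nM than at 100 nM at both times (6 of 10 members, 29.8% of 11893 genes), and KLF10 and KLF11 were lower at both (2 of 10, 28.0%). Only for KLF9 and KLF10 was the step beyond counting error at both times. It was within counting error at 48 h for KLF3, KLF4, KLF6 and KLF11, at 24 h for KLF5, and at both times for KLF7. KLF9 had steps of 0.46 at 24 h and 0.53 at 48 h. KLF5 differed by 0.12 and 0.62, KLF10 by -0.23 and -0.44, and KLF11 by -0.30 and -0.10. KLF13, with steps of 0.09 and -0.01, and KLF2, with 0.03 and -1.18, did not keep a direction. Past 1.5-fold, KLF5 was higher at 48 h (1 of 10, 5.58% of 11694 genes) and KLF2 was lower (1 of 10, 2.37%), and at 24 h 0 of 10 were higher (3.06%) or lower (2.14%).

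None of the other KLF genes or SP genes that were tested passed the 2-fold limit. Of 8 other KLF genes listed, 6 were in the files and 3 passed the filter, with 0 called in any comparison. KLF16 stayed between 25.12 and 27.39 FPKM, KLF12, a CtBP-binding repressor, lay between 3.92 and 5.91 and KLF15 between 1.09 and 2.57. The median changes of these 3 genes were 0.05, 0.34, -0.05 and 0.23. Of 9 SP genes, 7 were in the files and 5 were tested, with 0 called and medians of -0.05, -0.23, -0.0047 and -0.10. SP1 was between 15.06 and 19.52 FPKM and SP3 between 21.31 and 26.57.

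Of 12 genes for cofactors of KLF proteins, which include SIN3A, CTBP1, HDAC1 and the acetyltransferases EP300 and CREBBP, all were expressed and 0 were called in any comparison. At changes of any size, 10 of 12 were lower with 100 nM (48.1% of tested genes) and 9 of 12 with 200 nM (48.6%) for 24 h, and 2 of 12 (52.4%) and 7 of 12 (48.6%) for 48 h. The median changes were -0.16, -0.31, 0.21 and -0.02. Between the controls, without PCI-24781, 10 of 12 were also lower in DMSO 48 h than in DMSO 24 h. Their median there was -0.13, compared with -0.003 over all tested genes. CREBBP was at 11.01 FPKM in DMSO 24 h, 7.76 with 100 nM and 6.64 with 200 nM, and at 7.16, 8.40 and 6.28 at 48 h. Here too DMSO 24 h stood apart, as the highest library of CREBBP. HDAC1 was between 65.86 and 74.06 FPKM and SIN3A between 15.61 and 18.49.

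Of 20 genes known as KLF targets, 19 were in the files and 16 or 17 were tested. At each dose at 24 h 2 were called higher (CDKN1A and EDN1), where 1.35% and 4.47% of tested genes were, and 0 lower, and at 48 h 0 were called at either dose. The medians were 0.07, 0.47, -0.02 and 0.11. Between the controls, 14 of 16 targets were higher in DMSO 48 h by any amount, with a median of 0.31, compared with -0.003 over all tested genes. Of these targets 2 were called higher (2.49% of 11490 genes) and 1 lower (0.131%). CDKN1A, a target of KLF4 and KLF6, differed by 1.16, 1.81, -0.76 and 0.25. EDN1, which encodes endothelin-1 and is repressed by KLF2 in endothelium, was at 6.68 FPKM in DMSO 24 h, 16.69 with 100 nM and 16.32 with 200 nM, and at 9.64, 4.61 and 13.62 at 48 h. It differed by 1.20, 1.17, -0.92 and 0.46, with the signs of CDKN1A. THBD (thrombomodulin), which KLF2 induces in endothelium, was between 5.72 and 10.11 FPKM, with changes of -0.19, -0.42, -0.0078 and -0.13. S1PR1, which KLF2 induces in T cells, was between 0.43 and 1.34 FPKM, with changes of 0.25, 0.65, -0.25 and 0.18. Of 5 genes induced by glucocorticoid, as KLF9 is, 4 were tested and 0 were called, with medians of 0.14, 0.14, -0.15 and 0.05. Among them TSC22D3 was between 2.03 and 2.46 FPKM at 24 h and between 4.25 and 4.66 at 48 h, a split by time like that of KLF9. FKBP5 split the other way, as 13.2% of genes did, with 17.40 to 19.10 FPKM at 24 h and 11.82 to 14.19 at 48 h. SGK1, between 3.23 and 7.18 FPKM, did not split.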

How the data were processed

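RNA-seq of 6 MDA-MB-231 libraries was used, 1 per condition, with groups taken from the sample titles. The deposited FPKM values per gene, rounded by the authors to 2 decimals, are the only measurement. The submitters' processing notes name Bowtie2, RSEM and hg19, with no versions, the study's methods name enrichment of mRNA or depletion of rRNA without saying which was used, and the strand setting is not given in the sources used here. Coordinates are those of the files. Gene symbols were matched by NCBI Gene ID to the RefSeq table of GRCh38.p14 (16585 genes matched, 38 did not).

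Changes are differences in log2(FPKM + 1). Genes reaching an FPKM of 1 in either library were tested against a 2-fold limit, and the members' medians hold all 10 members whether or not they passed this filter. A count model was not run on these values, and with 1 library per condition p-values are not given. The share of all tested genes past the same limit is given beside each count of members. Fragments were inferred from steps between low values of 257 to 307 genes with 1 transcript of 500 to 1500 bases (GENCODE 29), and are approximate. For each member the length of its shortest transcript was used. The fragments count reads and not independent molecules.

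The members and the gene lists (other KLF genes, SP genes, cofactors, regulators, targets, glucocorticoid-induced genes, HDAC inhibitor response and cell type markers) were chosen with earlier results of these data known. The named genes are all 10 members, genes of these lists that were called or reached an FPKM of 1 in a library, the cell type markers, and, for the 2 members with the widest range, the 5 genes with the nearest pattern, of which 1 is not reported here. The CCAAT and MEF2 motifs were added after the data were seen, the MEF2 motif with the KLF2 sequence in view. Alternatives were pseudocounts of 0.1 and 0.01, no filter, a filter on both libraries, TPM, median-of-ratios factors, other DMSO references and a 1.5-fold limit. The calls were tested on simulated counts for 200 nM 24 h against DMSO 24 h: of 3362 genes, 100 of 100 raised 4-fold and 100 of 100 lowered 4-fold were called, and 0 of 3162 unchanged. Changes near the 2-fold limit were not simulated, so the simulation does not show how such changes are called. Python 3.11.15, numpy 2.4.6, pandas 2.3.3, scipy 1.17.1 and matplotlib 3.10.9 were used.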

Additional observations from a re-analysis of the deposited data

Results flagged for a closer look

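KLF4 differed from DMSO of the same time by 0.35 with 100 nM and 0.56 with 200 nM after 24 h, and by -0.21 and -0.16 after 48 h, so both doses were higher at the earlier time and lower at the later. KLF11 went the other way, by -0.044 and -0.35 after 24 h and by 0.21 and 0.10 after 48 h. Its changes at 100 nM 24 h (FPKM ratio 0.966, interval 0.848 to 1.10) and 200 nM 48 h (1.08, 0.961 to 1.22) were within counting error. The difference between the times was not tested, since each dose and time has 1 library, and the doses of a time share its DMSO library. Of these 8 changes, those of KLF4 at 24 h were negative against DMSO 48 h (-0.26 and -0.04), and those of KLF4 at 48 h were positive against DMSO 24 h (0.39 and 0.44).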

How the results depend on the processing

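No paired analysis was possible because the labels give no replicate numbers and the results come from no test. With 1 library per condition no replicate could be left out, and a fit of time and treatment without their interaction was not run. Values below are in the order 100 nM and 200 nM for 24 h, then both doses for 48 h. Against DMSO of the same time, 0 members were called in each. The number of members called was 1 and 2 at 24 h with a pseudocount of 0.1, and 1 and 2 with 0.01, 2 at 200 nM 24 h in TPM, 2, 3, 0 and 1 with a 1.5-fold limit, and, with DMSO 24 h as the reference of all libraries (chosen after seeing the data), 1 at 100 nM 48 h and 1 at 200 nM 48 h. The number of all genes called was 170, 693, 54 and 31, and it was 424, 1163, 153 and 128 with a pseudocount of 0.1, 468, 1232, 173 and 153 with 0.01, 366, 1082, 109 and 97 in TPM, 780, 2346, 260 and 232 at 1.5-fold, and 33, 322, 24 and 178 against the mean of both DMSO libraries. Where both libraries had to reach an FPKM of 1, it was 109 with 100 nM for 24 h, and 31 and 20 for 48 h.

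The members' median moved to 0.015 at 100 nM 24 h and 0.17 at 200 nM 24 h with the filter on both libraries, which leaves out the weakly expressed KLF7 and KLF9. Against the mean of both DMSO libraries it was -0.10, 0.11, 0.17 and 0.22. It was -0.26 and -0.16 at 24 h against DMSO 48 h and 0.39 and 0.44 at 48 h against DMSO 24 h, both chosen after seeing the data, so the sign at 24 h rests on the control. Without the 100 nM 48 h library, 1 member was above both controls and 1 below, instead of 0 and 0, and without the DMSO pair 2 members were lower at 48 h, instead of 0. These omissions were also chosen after seeing the data, as was the comparison with genes of similar GC content.

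Of the 40 changes of single members, 40 stayed within 0.1 of the value given under median-of-ratios factors, 36 in TPM and 35 under each smaller pseudocount. Against the mean of both DMSO libraries 0 of 40 did, and against either DMSO library alone 20 of 40, those of the time whose reference stayed the same. The sign differed for 10 of 40 against the mean, 8 against DMSO 24 h and 11 against DMSO 48 h. Those that moved in TPM or with a smaller pseudocount include KLF7 and KLF9, whose change at 200 nM 24 h was 1.37 and 1.94 with a pseudocount of 0.1. The KLF2 step between the doses at 48 h was between -1.19 and -1.23 under 4 other settings of pseudocount and scaling. The KLF9 difference between the DMSO libraries was 1.30 to 2.67. Depth limits KLF7 and KLF9, and the variation between cultures is unknown for all members.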

Other observations

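For the members with the widest range over the 6 libraries, genes with the nearest set of 4 changes against DMSO were looked up among genes that reached an FPKM of 1 in every library. The distance is Euclidean over 4 log2 changes, and the doses of a time share a DMSO library. Among the nearest to KLF9 were PHLDB2 at a distance of 0.0803, RNF13 at 0.0911, KREMEN1 at 0.110 and CDH24 at 0.111. The scale of log2(FPKM + 1) understates KLF9 (0.37 to 2.98 FPKM) more than PHLDB2 (11.28 to 22.48 FPKM). With a pseudocount of 0.1 the KLF9 changes at 24 h were 1.17 and 1.94, and distances were not computed on that scale. Nearest to KLF2 were ABHD14A at 0.197, LOXL1 at 0.259, CAMK1 at 0.278, IER5L at 0.278 and IGFBP6 at 0.280. On the scale used, the nearest gene to KLF2 was thus farther away than each of the genes named for KLF9. These distances describe 6 libraries and say nothing of shared control.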
